A study of Homo sapiens with 6 samples.

Results

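HepG2 is a human cell line grown from a liver tumour, and the untreated cells of this series were profiled on 3 of its 6 arrays. The other arrays held cells given a water extract of Barringtonia racemosa leaves (BLE) and are not compared here. The cells grew in DMEM with 10% foetal bovine serum, penicillin and streptomycin at 37 °C in 5% CO2. Total RNA was hybridised to the Affymetrix Human Gene 1.0 ST array, whose probes are summarised per transcript cluster. A transcript cluster is a set of probes annotated with 1 gene symbol, several or none. The labels call the 3 untreated samples biological replicates, without stating that they came from separate cultures, so the SD given below measures only the spread between these samples, which may be technical. The labels name no genotype, age or vehicle for the untreated cells, and every result rests on 1 cell line in 1 medium. Of 28829 transcript clusters with values above 0, the 19291 with exactly 1 gene symbol were kept, and they stand for 18372 named genes.

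Hepatocytes secrete most proteins of the blood plasma, make and clear lipoproteins, store and release glucose, detoxify ammonia, convert cholesterol to bile acids and oxidise drugs. The fetal liver makes alpha-fetoprotein beside albumin, is a site of blood formation and uses other forms of several metabolic enzymes than the adult liver. Liver tumour lines divide in culture and are known to keep some hepatocyte functions and to lose others.

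The deposited values carry no detection call, so the genes of olfactory receptors, which are used in the nose and a few other tissues, served as the background. The median log2 signal of 359 olfactory receptor genes was 2.78, 2.85 and 2.78 on arrays 1, 2 and 3, and their 95th percentiles were 3.22, 3.35 and 3.26. A gene was called above background where it exceeded that percentile on each of the 3 arrays, not above background where it exceeded it on none, and mixed otherwise. By this measure 11156 of the 18372 named genes (60.7%) were above background, 1655 were mixed and 5561 were not above. All values below are log2 signals. Probes differ in how well they bind, so a higher signal of 1 gene than of another is not by itself a higher abundance, and a gene that is not above background may still be transcribed at a level these probes do not show.

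Of 107 measured genes in 6 lists of liver genes, 88 were above background (82.2%), beside the 60.7% of all named genes, and 37 were among the brightest 10% on each array (34.6%), beside 9.44% of all named genes (1735). The 3 lists of proliferation genes held 80 of 82 above background (97.6%), with 35 in the brightest 10%. The 3 lists grouped as fetal, which are oncofetal, beta-catenin target and erythroid genes, held 28 of 40 (70.0%). AFP was counted in the liver and the fetal lists. The 12 metabolic lists held 174 of 249 (69.9%). Among 107 markers of cell types other than hepatocytes, 36 were above background (33.6%) and 4 were in the brightest 10%. The median signal was 5.52 for the liver lists, 5.52 for the fetal, 6.38 for the proliferation, 4.65 for the metabolic and 3.18 for the markers of other cell types, beside 3.73 for all named genes. The share of 60.7% is also the one to set beside the counts of single lists below.

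**Figure D1:**
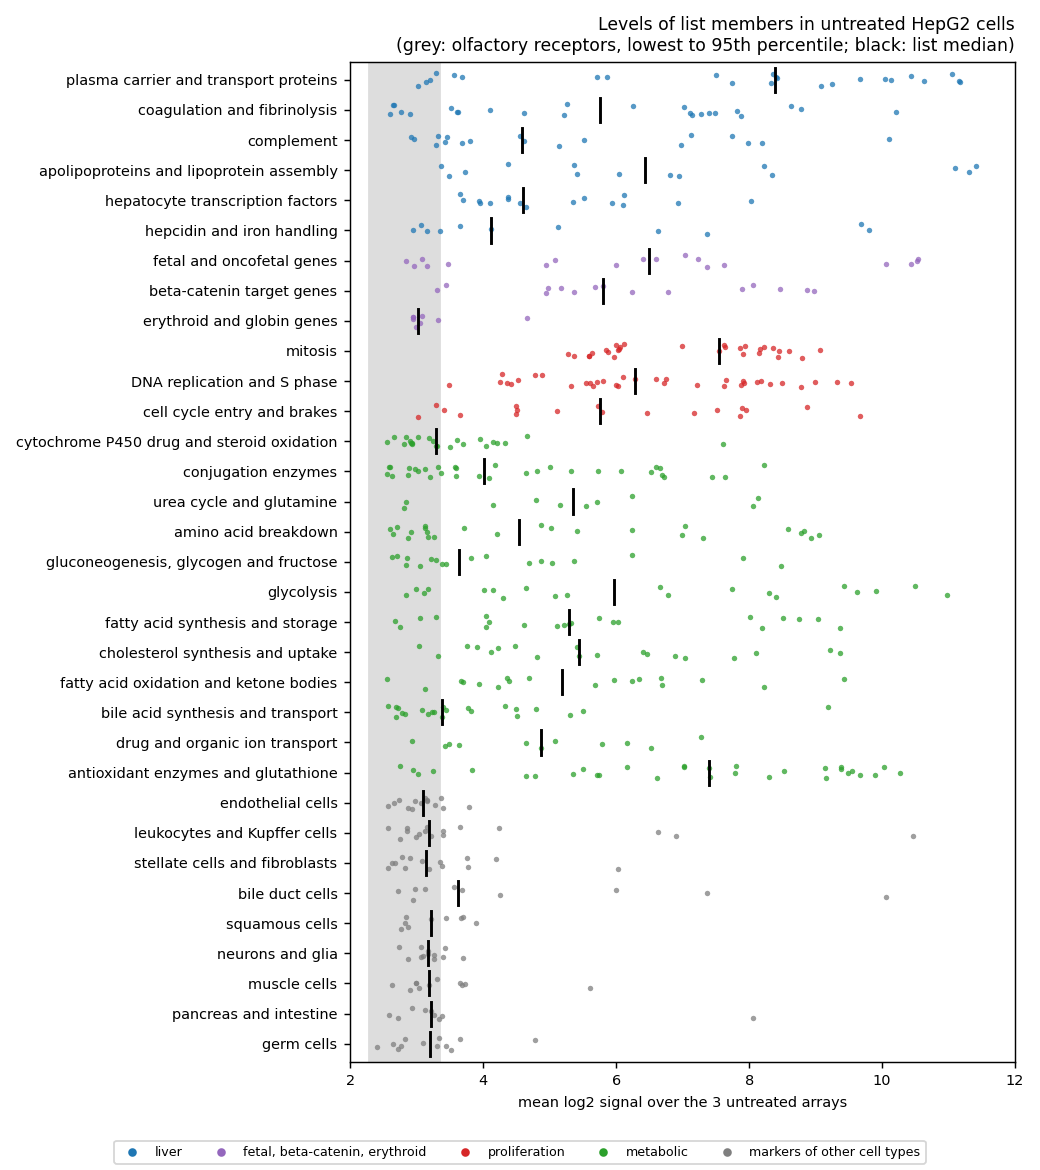
Mean log2 signal over the 3 untreated arrays (horizontal axis) of each measured member of 33 gene lists, with 1 point per gene, a black bar at the list median and a grey band from the lowest olfactory receptor gene to the highest of the 3 arrays' 95th percentiles. All points of the mitosis list lie to the right of the band, while the medians of the erythroid list, of the cytochrome P450 list and of 8 of the 9 lists for other cell types lie inside it.

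The olfactory receptor threshold was low for some gene families. Of 66 keratin-associated protein genes, which are used in hair, 31 were above it (47.0%), whereas 0 of 23 bitter taste receptor genes were. With these hair and taste genes as the background, the thresholds were 5.76, 5.71 and 5.84, and 19.2% of all named genes passed. The liver lists then held 52 of 107 (48.6%), the fetal 18 of 40 (45.0%), the proliferation 50 of 82 (61.0%), the metabolic 83 of 249 (33.3%) and the other cell types 8 of 107 (7.48%). A signal between the 2 sets of thresholds is therefore above one background and not the other, and this holds for many of the dimmer genes named below.

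Plasma carrier and transport proteins had the highest median of the liver lists, at 8.38, and 20 of 24 measured members were above background, 16 of them in the brightest 10%. Albumin (ALB), the main protein of plasma, gave 11.04, 10.90 and 11.21 on arrays 1, 2 and 3, or 11.05 ± 0.16 (SD, n = 3), and stood 8.25 ± 0.19 above the olfactory receptor median. Transferrin (TF), which carries iron, gave 11.14, 11.12 and 11.21. ITIH2, a chain of an inhibitor that binds hyaluronan, gave 11.21, 11.08 and 11.21. The ranges of these 3 genes overlapped. Further carriers of this list were also bright, among them ORM2 (10.63 ± 0.15), an acute phase protein, transthyretin (TTR, 9.25 ± 0.07), which carries thyroid hormone and retinol-binding protein, and the protease inhibitor SERPINA1 (9.08 ± 0.04).

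Afamin (AFM), a vitamin E binding relative of albumin, was not above background, with 2.98, 3.27 and 2.82. ITIH1, a relative of ITIH2, gave 3.16, 3.04 and 3.21 and was not above background either. The genes of albumin, alpha-fetoprotein (AFP) and afamin follow each other on chromosome 4. Along that stretch ANKRD17 gave 6.03 ± 0.55, ALB 11.05 ± 0.16, AFP 10.43 ± 0.10, AFM 3.02 ± 0.23 and RASSF6 2.59 ± 0.07, so the 2 neighbouring family members ALB and AFP were bright while the third and the gene after it were at the level of olfactory receptors.

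The serpin genes on chromosome 14 showed a similar mixture. Of 9 neighbouring members, SERPINA1 was brightest, SERPINA3 gave 8.41 ± 0.09, SERPINA6 7.50 ± 0.06 and SERPINA5 7.39 ± 0.12. SERPINA10 (5.22 ± 0.13), SERPINA11 (5.24 ± 0.03) and SERPINA4 (4.57 ± 0.02) were lower, SERPINA12 (3.48 ± 0.23) was above the olfactory receptor threshold on each array, and SERPINA9 (2.92 ± 0.08), known from germinal centre B cells, was not above it.

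HNF1 proteins are homeodomain factors that act at many hepatocyte promoters. The stretches of 140 bases before the transcription start of 5 liver genes are shown because they hold the exact motif GTTAATNAT or its reverse complement, and because 3 of these genes were bright and the other 2 were at background. The sequences are RefSeq's for GRCh38.p14, written 5′ to 3′ on the strand of the gene, and the capitals mark matches to the HNF1 motif on either strand and to the TATA box TATAAA on the strand of the gene.
ALB (chr4:73404147-73404286, plus strand): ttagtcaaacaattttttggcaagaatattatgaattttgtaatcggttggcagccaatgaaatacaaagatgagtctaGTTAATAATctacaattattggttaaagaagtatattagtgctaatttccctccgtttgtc
AFP (chr4:73436081-73436220, plus strand): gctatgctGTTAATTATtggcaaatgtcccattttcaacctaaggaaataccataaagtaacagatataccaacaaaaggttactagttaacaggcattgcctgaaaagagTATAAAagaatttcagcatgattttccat
FGA (chr4:154590743-154590882, minus strand): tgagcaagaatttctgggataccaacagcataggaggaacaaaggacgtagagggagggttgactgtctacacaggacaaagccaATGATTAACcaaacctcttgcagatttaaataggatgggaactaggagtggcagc
PLG (chr6:160702104-160702243, plus strand): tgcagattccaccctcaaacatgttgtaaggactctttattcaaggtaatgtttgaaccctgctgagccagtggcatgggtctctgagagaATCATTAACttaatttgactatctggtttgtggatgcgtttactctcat
F13B (chr1:197067261-197067400, minus strand): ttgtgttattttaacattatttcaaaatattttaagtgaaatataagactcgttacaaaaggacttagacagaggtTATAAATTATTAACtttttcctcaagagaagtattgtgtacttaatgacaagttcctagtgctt

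The HNF1 match began 61 bases before the start in ALB, 132 in AFP, 55 in FGA, 49 in PLG and 59 in F13B, where it overlapped a TATA box match that began 64 bases before the start. PLG also has another listed start, and the same match began 2 bases after that start, so it is not upstream of both. Over windows from 250 bases before to 50 after the start, 7 of the 84 measured liver-list genes with a window held the HNF1 motif (8.33%), against 263 of all 27305 genes with a window (0.963%). The other 2 were the complement genes C4BPA and C5. Among the liver-list genes the motif was in 5 of 68 that were above background (7.35%) and in 2 of 16 that were mixed or not above (12.5%), so genes at background held it too. TATAAA was in 14 of the 84 (16.7%), against 8.99% of all genes with a window, and its share was as high or higher in the measured members of the fetal (16.7%) and other cell type lists (21.4%) and similar in the metabolic lists (16.1%). A match is a description of these letters, and binding was not measured.

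Coagulation and fibrinolysis genes were more divided, with 18 of 24 above background and a median of 5.76. The 3 fibrinogen chains, which assemble into 1 protein and lie side by side on chromosome 4, were all above background. FGA gave 10.35, 10.14 and 10.14, FGG 8.68, 8.51 and 8.70, and FGB 7.88, 7.95 and 7.81, while the genes on either side gave 5.27 ± 0.04 (PLRG1) and 2.91 ± 0.20 (LRAT). The order FGA, FGG, FGB was the same on the 3 arrays, but each chain has its own probes. CPB2, which slows the breakdown of clots, gave 8.78 ± 0.14, and factor V (F5) gave 7.82 ± 0.05.

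Several other clotting genes were at background. Factor IX (F9), a protease that is missing in haemophilia B, gave 2.57, 2.66 and 2.56 and was lowest in its list. F13B, the carrier subunit of factor XIII, gave 2.63, 2.73 and 2.59, and plasminogen (PLG), the precursor of the protease that dissolves fibrin, gave 2.78, 2.60 and 2.89. HRG and KLKB1, the latter the precursor of plasma kallikrein, completed the 5 members of this list that exceeded the threshold on no array, and F12 was mixed.

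Complement genes had a median of 4.59, and 14 of 18 were above background (77.8%, beside 60.7% of all named genes). C3, the central component, gave 10.05, 10.09 and 10.16, or 10.10 ± 0.05. C5 (8.20 ± 0.18), which starts the membrane attack complex, the protease CFI (7.99 ± 0.08), which cleaves C3b, and CFB (7.74 ± 0.08), of the alternative pathway, were bright as well. C6 (2.91 ± 0.11) and C9 (2.97 ± 0.21), later parts of the membrane attack complex, were not above background.

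Apolipoproteins and lipoprotein assembly genes were above background in 13 of 14 cases (92.9%), beside 60.7% of all named genes. LPA, the protein of lipoprotein(a), was mixed at 3.63, 3.28 and 3.20. APOA2 of high density lipoprotein gave 11.45, 11.34 and 11.46. APOB, the scaffold of very low density lipoprotein, gave 11.30, 11.26 and 11.38, and APOH, which binds phospholipids, gave 11.05, 11.04 and 11.20. In the cluster on chromosome 11, APOA1 of high density lipoprotein was bright at 8.34 ± 0.10, APOC3, which inhibits lipoprotein lipase, gave 5.41 ± 0.14, and APOA5 (3.73 ± 0.11) and APOA4 (3.49 on each array) were close to the olfactory receptor threshold. APOE, a ligand of lipoprotein receptors, gave 6.05 ± 0.16 and its neighbour APOC1 6.94 ± 0.12.

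All 16 measured hepatocyte transcription factors were above background, but only PROX1 was in the brightest 10% and their median was 4.60. PROX1, needed for the liver bud to grow, gave 8.11, 7.94 and 8.02. HHEX (6.94 ± 0.03) and FOXA1 (6.13 ± 0.07), which act early in liver development, and ONECUT1 (6.10 ± 0.15) followed. The lowest was NR1I3, a receptor that responds to foreign compounds, at 3.65 ± 0.01, a value it shared exactly with another gene's cluster. With hair and taste genes as the background 5 of the 16 passed.

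Iron genes were above background in 7 of 11 cases (63.6%), close to the 60.7% of all named genes. The transferrin receptor (TFRC), which takes up iron in dividing cells, gave 9.82, 9.78 and 9.83, and the ferritin light chain (FTL), which stores it, 9.60, 9.60 and 9.86. Hepcidin (HAMP), the liver hormone that blocks iron export, gave 6.45, 6.71 and 6.72, and SLC40A1, the exporter it acts on, 7.41, 7.31 and 7.38. HJV (2.94 ± 0.20), a coreceptor in the control of hepcidin, HFE (3.06 ± 0.04), mutated in haemochromatosis, and TMPRSS6 (3.15 ± 0.02), a protease that cleaves HJV, were not above background.

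**Figure D2:**
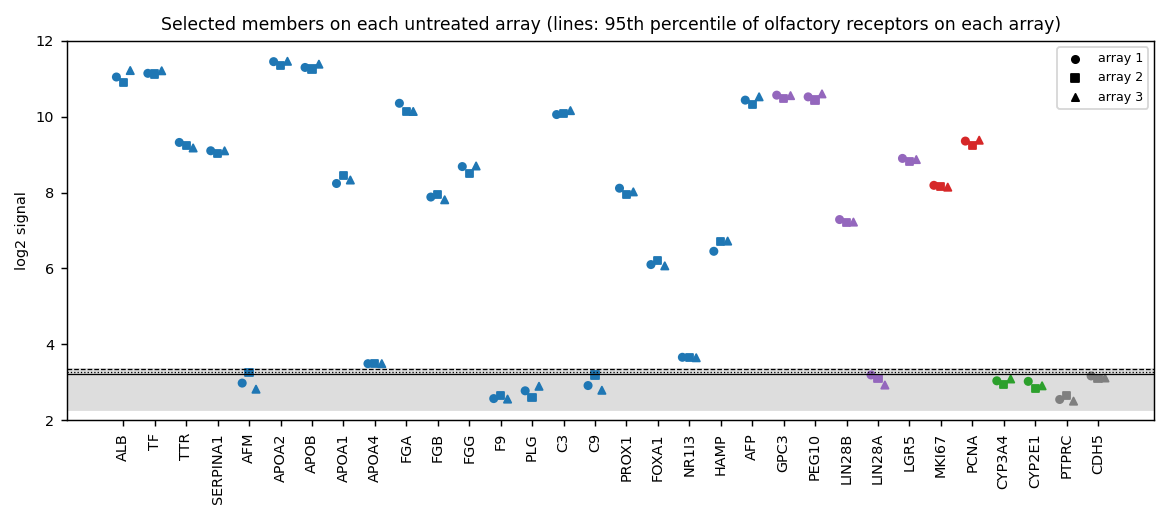
Log2 signal of 32 selected genes on each of the 3 untreated arrays (circle, square and triangle), coloured by family as in the plot of levels by list, with the 3 olfactory receptor thresholds as lines and the olfactory receptor range shaded. The arrays lie close together for each gene, with ALB between 10.90 and 11.21 and F9 between 2.56 and 2.66.

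Fetal and oncofetal genes were above background in 14 of 18 cases, 7 of them in the brightest 10%, with a median of 6.50. Alpha-fetoprotein, the fetal counterpart of albumin, gave 10.44, 10.32 and 10.52, or 10.43 ± 0.10. Glypican-3 (GPC3), a cell surface proteoglycan of fetal liver and liver tumours, gave 10.57, 10.48 and 10.55, and PEG10, an imprinted gene derived from a retroelement, gave 10.52, 10.44 and 10.60. The ranges of these 3 genes overlapped. EPCAM, an adhesion protein of fetal liver cells and bile ducts, gave 10.06 ± 0.08.

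Not every fetal gene was bright. LIN28B, which blocks the maturation of let-7 microRNAs, gave 7.29, 7.20 and 7.22, whereas its paralogue LIN28A gave 3.19, 3.11 and 2.93 and was not above background. SPINK1 (2.84 ± 0.04), a trypsin inhibitor, and MEG3 (2.97 ± 0.02), an imprinted noncoding RNA, were not above background either. IGF2, H19 and the gamma globins HBG1 and HBG2 lie in transcript clusters with several symbols and have no value here.

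The list of beta-catenin target genes, which includes CTNNB1 itself, had 14 of 15 members above background and a median of 5.80. CTNNB1, encoding beta-catenin, gave 9.10, 8.88 and 8.93. LGR5, a receptor of R-spondins, gave 8.90, 8.83 and 8.87, and DKK1, a secreted Wnt inhibitor, 8.51, 8.28 and 8.58. Glutamine synthetase (GLUL, 8.06 ± 0.19), which in the liver is confined to cells around the central vein, and NKD1 (7.89 ± 0.07), an inhibitor of the pathway, were also in the brightest 10%. LEF1, a transcription factor that binds beta-catenin, was the member that was mixed, at 3.33, 3.36 and 3.25.

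The measured erythroid and globin genes, which mark the blood-forming cells of fetal liver, were mostly near background. KLF1, an erythroid transcription factor, was above it at 4.65 ± 0.14, but not above that set by hair and taste genes. HBB gave 3.41, 3.28 and 3.28 and was mixed, HBD 2.76, 3.23 and 3.18, and the embryonic globins HBE1 (2.95 ± 0.06) and HBZ (2.94 ± 0.21) were not above background. Without array 2, 2 of the 8 genes were above background in place of 1. The median of the 8 was 3.03, or 0.23 above the olfactory receptor median.

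All 29 measured mitosis genes and all 35 measured genes of DNA replication and S phase were above background. TPX2, which organises the spindle, gave 9.09, 8.96 and 9.16, the kinase AURKA 8.95, 8.62 and 8.79, and the kinase PLK1 8.66, 8.48 and 8.68. Cyclin A2 (CCNA2) gave 8.44 ± 0.16 and the widely used proliferation marker MKI67 8.16 ± 0.03. The lowest mitosis gene was the centrosome kinase NEK2 at 5.27 ± 0.11, well clear of the olfactory receptor thresholds.

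In the replication list thymidylate synthase (TYMS), which makes the thymidine nucleotide, gave 9.51, 9.45 and 9.64, and the sliding clamp PCNA gave 9.36, 9.25 and 9.38. The large subunit of ribonucleotide reductase (RRM1, 8.99 ± 0.15) and the licensing factor CDC6 (8.77 ± 0.05) came next. POLE2, a subunit of DNA polymerase epsilon, was lowest at 3.57, 3.44 and 3.46 and still exceeded the threshold on each array. The list had 14 members in the brightest 10% and the mitosis list 15.

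Genes of cell cycle entry and its brakes were above background in 16 of 18 cases (88.9%), beside 60.7% of all named genes. CDK4, which pairs with D cyclins, gave 9.68, 9.65 and 9.65, and MDM2, a ubiquitin ligase, 8.88, 8.76 and 8.98. MYC (7.89 ± 0.03) and CCND1 (7.87 ± 0.10) promote entry into the cycle, and RBL1 (7.95 ± 0.08), a relative of the retinoblastoma protein, restrains it. Cyclin D2 (CCND2) was not above background at 2.90, 3.05 and 3.09, and the CDK inhibitor gene CDKN2A was mixed at 3.29, 3.55 and 3.05.

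**Figure D3:**
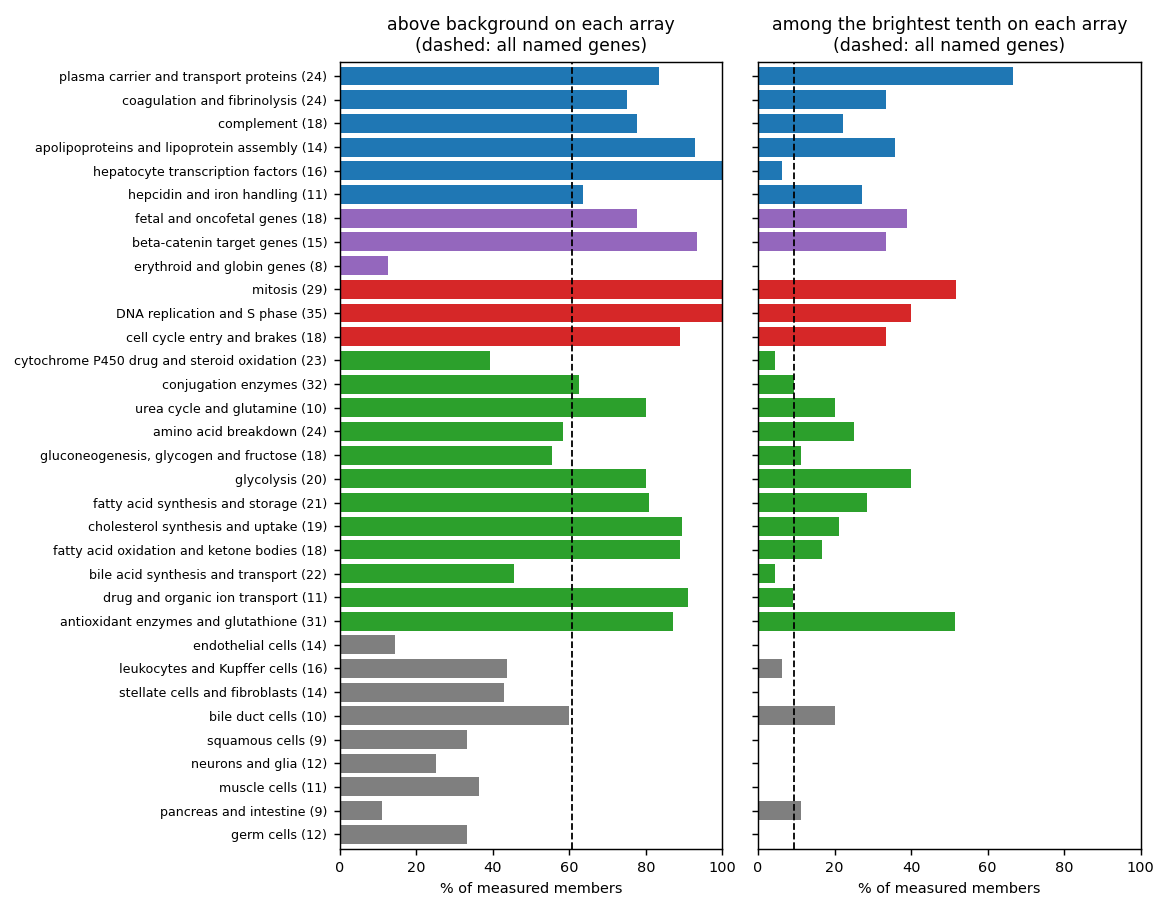
Percentage of the measured members of each list (their number in brackets) that were above the olfactory receptor background on each array (left) and among the brightest 10% of named genes on each array (right), with dashed lines at the shares of all named genes, 60.7% and 9.44%. The mitosis, replication and hepatocyte transcription factor lists reach 100% on the left, and the transcription factor list falls to 6.25% on the right.

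Metabolic lists differed widely. Cytochrome P450 genes of drug and steroid oxidation were above background in 9 of 23 cases (39.1%), below the 60.7% of all named genes, and their median of 3.29 was 0.49 above that of olfactory receptors. The brightest was CYP24A1, which inactivates vitamin D, with 7.72, 7.63 and 7.49. CYP3A4, the main drug-oxidising enzyme of adult liver, gave 3.04, 2.94 and 3.09, CYP2E1, which oxidises ethanol, 3.02, 2.84 and 2.91, and CYP2B6 2.50, 2.66 and 2.49. These 3 were at or below the olfactory receptor threshold on each array. CYP2S1 (4.65 on each array) and CYP4F3 (4.32 ± 0.09) followed CYP24A1.

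Conjugation enzymes attach glutathione, sulphate or glucuronic acid to substrates. They were above background in 20 of 32 cases (62.5%), close to the 60.7% of all named genes. The microsomal glutathione transferases MGST3 (8.23 ± 0.03), MGST2 (7.44 ± 0.08) and MGST1 (6.71 ± 0.21) were bright, as was UGT2B10, which glucuronidates nicotine, with 7.81, 7.56 and 7.53. The acetyltransferase NAT1 (2.55 ± 0.06) and the glucuronosyltransferases UGT2B28 (2.59 ± 0.06) and UGT2B17 (2.60 ± 0.03) were not above background. Probes of close relatives in the UGT2B and glutathione transferase families may share targets, and GSTM1 and GSTM2 had identical values, so these members are uncertain.

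The urea cycle detoxifies ammonia. The mitochondrial carriers SLC25A13 (8.13 ± 0.06) and SLC25A15 (6.23 ± 0.04), ASS1 (5.72 ± 0.19) and CPS1 (5.22, 5.22 and 5.02), which catalyses its first step, were above background. Ornithine transcarbamylase (OTC) gave 2.85, 2.81 and 2.74 and arginase 1 (ARG1), its last enzyme, 2.81, 2.85 and 2.85, and neither was above background. In total 8 of 10 measured members of this list were above background (80.0%), beside 60.7% of all named genes.

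Enzymes of amino acid breakdown were above background in 14 of 24 cases (58.3%), close to the 60.7% of all named genes. In tyrosine breakdown HPD gave 9.09, 9.02 and 9.06 and HGD 8.80, 8.80 and 8.73, whereas TAT, its first enzyme, gave 3.12, 3.16 and 3.20 and was not above background. GLDC of the glycine cleavage system gave 8.93 ± 0.13 and the aspartate aminotransferase GOT1 8.58 ± 0.10. In tryptophan breakdown KYNU gave 8.98, 8.67 and 8.83 and HAAO 5.40, 5.26 and 5.59, whereas TDO2, the first enzyme of that route in liver, gave 2.71, 2.68 and 2.53, KMO 2.55, 2.75 and 2.52, and IDO2 2.71 ± 0.07. TDO2, KMO and IDO2 were not above background.

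Genes of gluconeogenesis, glycogen and fructose handling were above background in 10 of 18 cases (55.6%), with a median of 3.63. Glycolysis genes were above it in 16 of 20 (80.0%), with a median of 5.96. The share of all named genes was 60.7%. GAPDH gave 10.92, 10.97 and 11.05 and LDHA, which makes lactate, 10.46, 10.35 and 10.66. LDHB, the other lactate dehydrogenase subunit, gave 2.98, 2.76 and 2.80, and the hexokinases HK1 (2.99 ± 0.08) and HK3 (3.12 on each array) were not above background. The hexokinase HK2 was above background, with 6.78, 6.78 and 6.75. Enolase 1 (ENO1), an enzyme that glycolysis needs and most cells use, gave 4.19, 4.19 and 4.08.

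Several of these reactions have 1 form typical of liver and others typical of other tissues. In the 11 reactions with both kinds measured, 7 of 11 liver forms were above background (63.6%), with a median of 3.82, and 11 of 14 other forms (78.6%), with a median of 5.20. The share of liver forms was close to the 60.7% of all named genes. For glucose 6-phosphatase, which releases glucose, the liver gene G6PC1 gave 2.84 on each array, a value shared with another gene's cluster, and the widely used G6PC3 gave 6.18, 6.21 and 6.31. For arginase, ARG2 gave 5.69, 5.35 and 5.60 where ARG1 was at background. For glycogen synthase the liver form GYS2 gave 2.71 ± 0.07 and the muscle form GYS1 4.69 ± 0.02.

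Pyruvate kinase and methionine adenosyltransferase had both forms above background. PKLR, the liver and red cell form, gave 3.95, 3.70 and 3.80 and PKM 9.48, 9.48 and 9.32. MAT1A, the adult liver form, gave 4.20, 4.19 and 4.25 and MAT2A, the form of fetal liver and other tissues, 9.89, 9.87 and 9.96. The mitochondrial PCK2 gave 5.03 ± 0.08, a value shared with another gene's cluster, and the cytosolic PCK1 3.44 ± 0.09. Neither fructose bisphosphatase was above background, with FBP1 at 3.05 ± 0.08 and FBP2 at 2.62 ± 0.01.

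Among forms above background, the liver form had the higher signal in glycogen phosphorylase, phosphofructokinase and carnitine palmitoyltransferase 1. For carnitine palmitoyltransferase 1, the liver form CPT1A gave 3.82, 4.01 and 3.96 and CPT1C 3.27, 3.99 and 3.37, so their ranges overlapped. PYGL gave 8.43, 8.51 and 8.51, the brain form PYGB 5.42, 5.50 and 5.20, and the muscle form PYGM was not above background at 2.86 ± 0.07. PFKL gave 5.26 ± 0.19, PFKP 4.02 ± 0.09, and PFKM was not above background. Among glucose transporters, SLC2A2, the transporter of hepatocytes, gave 7.91, 7.73 and 8.09, SLC2A1 9.67, 9.62 and 9.58, and SLC2A3 9.95, 9.83 and 9.95. All of these comparisons are between different probes, and the differences within a reaction carry no test.

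**Figure D4:**
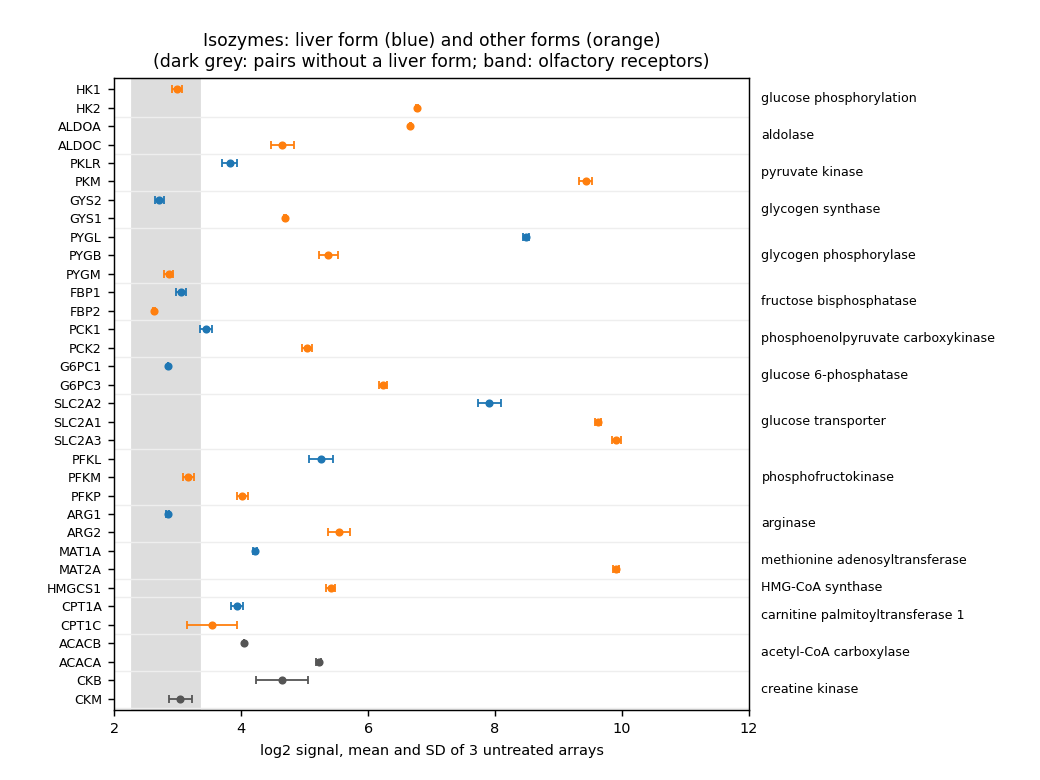
Mean log2 signal with the SD over the 3 untreated arrays for the measured isozymes of 16 reactions, with liver forms in blue, forms of other tissues in orange, pairs without a liver form in dark grey and the olfactory receptor range shaded. GYS2, FBP1, G6PC1 and ARG1 are the liver forms inside the band, and PYGL and SLC2A2 are the liver forms near 8.

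Of lipid synthesis genes, 17 of 21 for fatty acid synthesis and storage (81.0%) and 17 of 19 for cholesterol synthesis and uptake (89.5%) were above background. The share of all named genes was 60.7%. SCD, which desaturates stearate, gave 9.48, 9.21 and 9.42, the elongase ELOVL5 9.04 ± 0.04 and the lipid droplet protein PLIN2 8.75 ± 0.10. ACAT2, which condenses acetyl-CoA, gave 9.36, 9.36 and 9.37 and SQLE, which oxidises squalene, 9.24, 9.16 and 9.23. ME1 (2.75 ± 0.07), an NADPH-producing enzyme, SCD5 (2.68 ± 0.12) and INSIG1 (3.04 ± 0.08), which retains the sterol sensor in the endoplasmic reticulum, were not above background.

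In fatty acid oxidation and ketone bodies, 16 of 18 members were above background (88.9%), beside 60.7% of all named genes. The trifunctional protein subunits HADHA and HADHB gave 9.43 ± 0.05 and 8.23 ± 0.10, and the peroxisomal EHHADH 7.29 ± 0.11. CPT1A, the liver gate of fatty acids into mitochondria, gave 3.82, 4.01 and 3.96. ACADL (2.55 ± 0.06), a long-chain dehydrogenase, and BDH1 (3.12 ± 0.05), a ketone body enzyme, were not above background.

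Bile acid synthesis and transport genes were above background in 10 of 22 cases (45.5%), the lowest share of the metabolic lists after the cytochromes, and their median was 3.39. ABCC2, which exports conjugates into bile, gave 9.13, 9.14 and 9.27. CYP7A1, the rate-limiting enzyme of bile acid synthesis, gave 2.77, 2.79 and 2.77, the bile salt export pump ABCB11 2.57, 2.81 and 2.70, and the hepatocyte uptake transporter SLCO1B1 2.50, 2.71 and 2.50. These 3 were not above background. CYP27A1, of the alternative route, gave 5.71, 5.04 and 5.14, with array 1 apart from the other two. In the list of drug and organic ion transport 10 of 11 were above background, led by the nucleoside transporter SLC29A1 (7.27 ± 0.03) and the cholesterol exporter ABCA1 (6.53 on each array).

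Antioxidant enzymes and glutathione genes had the highest median of the metabolic lists, at 7.40, with 27 of 31 above background and 16 in the brightest 10%. Superoxide dismutases convert superoxide to hydrogen peroxide. The cytosolic SOD1 gave 9.56, 9.59 and 9.51 and the mitochondrial SOD2 9.35, 9.30 and 9.51, while the secreted SOD3 was mixed at 3.08, 3.26 and 3.41. Catalase (CAT), which breaks down hydrogen peroxide in peroxisomes, gave 8.31, 8.21 and 8.37.

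Glutathione peroxidases reduce peroxides with glutathione. GPX2, known from the gut, gave 10.33, 10.17 and 10.31 and was brightest in the list. GPX4, which reduces lipid peroxides, gave 7.42, 7.39 and 7.43, and the plasma form GPX3 6.11, 6.33 and 6.06. GPX1, the widespread cytosolic form, gave 5.38, 5.83 and 5.93, with array 1 lowest and an SD of 0.29. GPX5, GPX6 and GPX8 were not above background, with means between 2.76 and 3.02. The mitochondrial peroxiredoxin PRDX3 (10.02 ± 0.07), glutathione reductase (GSR, 9.89 ± 0.09) and thioredoxin (TXN, 9.67 ± 0.10) were next to GPX2.

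The labelled cell type was checked against markers. ALB, TTR, TF, SERPINA1, APOA1, APOA2, APOB and FGB, all markers of hepatocytes, were above background and had values in the brightest 10%, as given above. Other genes known from hepatocytes were not above background, among them ARG1, OTC, TAT, CYP3A4, CYP2E1, F9, PLG and TDO2. Of these, F9 and PLG encode secreted plasma proteins, so the marker check covers neither every plasma protein nor every hepatocyte function. Markers of other cell types were mostly near background. Endothelial markers were above background in 2 of 14 cases, and the highest, CLEC4G, gave 3.79 ± 0.07. CDH5, the endothelial cadherin, gave 3.17, 3.09 and 3.11 and PTPRC, found on all leukocytes, 2.55, 2.64 and 2.50, and neither was above background. Markers of neurons and glia were above in 3 of 12 cases, squamous in 3 of 9 and muscle in 4 of 11. The counts were 4 of 12 for germ cells, 1 of 9 for pancreas and intestine and 6 of 14 for stellate cells and fibroblasts. For leukocytes and Kupffer cells the count was 7 of 16. Bile duct markers were above in 6 of 10 cases (60.0%), close to the 60.7% of all named genes. Each of the other lists of this kind had a lower share. Without array 2, which had the highest threshold, the count for pancreas and intestine was 4 of 9.

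The 8 that also passed the hair and taste gene thresholds were LYZ, EPCAM, VIL1, KRT19, CD68, CSF1R, ACTA2 and SOX9. Lysozyme (LYZ), an antibacterial enzyme of macrophages and glands, gave 10.55, 10.34 and 10.48. CD68, a lysosomal protein, gave 7.01, 6.90 and 6.81 and CSF1R, a macrophage receptor, 6.67, 6.59 and 6.61, while the other leukocyte markers had means of at most 4.24. Villin (VIL1), of microvilli, gave 7.98, 8.11 and 8.09. EPCAM (10.06 ± 0.08), KRT19 (7.37 ± 0.07) and SOX9 (5.95, 6.03 and 6.02) were also members of the fetal list, whereas the bile duct keratin KRT7 gave 3.12 ± 0.04 and was not above background. Smooth muscle actin (ACTA2, 6.04 ± 0.05) stood beside skeletal actin (ACTA1, 5.60 ± 0.12), and actin genes have similar sequences.

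Of the 20 brightest named genes, 6 were in the liver lists (APOA2, APOB, ITIH2, TF, APOH and ALB) and 6 encode ribosomal proteins (RPS25, RPL27, RPL38, RPS4X, RPS15A and RPS24). The brightest was RPS25, with 11.48, 11.48 and 11.53, followed by PTMA, an acidic nuclear protein, with 11.53, 11.48 and 11.42. GAPDH came from the metabolic lists. The other genes were FAF2, EEF1A1, HSP90B1, DAD1, HSP90AB1 and YWHAE, of protein synthesis, folding, glycosylation, breakdown and signalling. The 20 means lay between 10.87 and 11.50, near the top of the scale of these arrays, whose highest values were 11.76 to 11.93.

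The 3 arrays resembled each other closely. The correlation between arrays over all 18372 named genes, which are not independent, was 0.993 to 0.995. Over the 11156 genes above background, the median absolute difference was 0.092 to 0.108. The median SD was 0.090 and its 95th percentile 0.266. The median SD was 0.099 for genes with means from 4 to 5 and 0.069 from 9 to 10. Among genes above background, 18.0% had exactly the same deposited value, with no tolerance, on at least a pair of arrays, 316 genes on all 3, so an SD of 0 here stands for a value repeated in the deposited table.

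An SD over 0.3 was found in 364 of the genes above background (3.26%). Array 2 was farthest from the other two in 160 of them, below them in 100, array 1 in 123 and array 3 in 81. The largest SD was that of COX7B, a subunit of cytochrome c oxidase, with 7.10, 5.10 and 6.57. MUC12, a mucin, gave 3.27, 3.94 and 5.10, and FUNDC2, a mitochondrial outer membrane protein, 5.32, 3.71 and 5.02. Among list members the least repeatable was CYP51A1, a demethylase of cholesterol synthesis, with 4.77, 4.18 and 5.49, or 4.81 ± 0.66. The next was IGF2BP1, an RNA-binding protein of fetal tissues, with 6.67, 6.17 and 6.96.

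**Figure D5:**
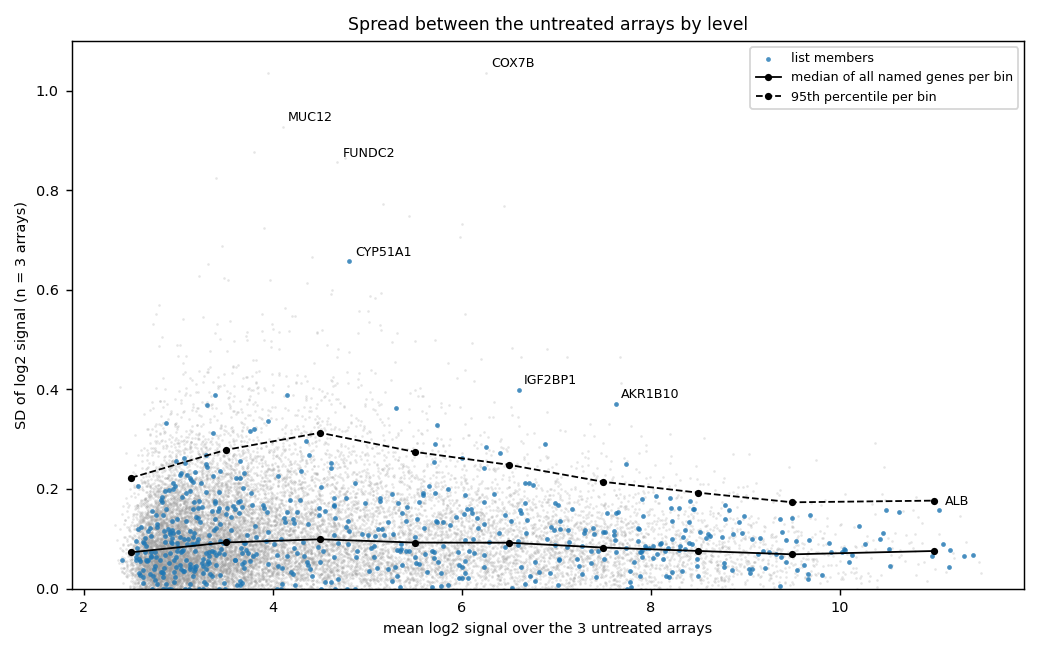
SD of the log2 signal over the 3 untreated arrays (vertical axis) against its mean (horizontal axis) for the named genes (grey) and list members (blue), with the median and the 95th percentile of the SD per bin of mean signal as lines. CYP51A1 lies far above the 95th percentile line with an SD of 0.66, and COX7B has an SD of 1.04.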

How the data were processed

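The deposited table holds log2 values that the authors made for the 6 arrays. GCOS, Partek and RMA are named in the submitters' processing notes, with neither version nor options. RMA corrects background, normalises and summarises probes, and the distributions of the deposited arrays differ slightly. Of 33297 rows, 4468 at 0 on every array were left out, as were 1735 with several symbols and 7803 without a symbol. Symbols came from GEO's platform annotation, updated to RefSeq of GRCh38.p14. A gene with several clusters (682) took the one with the highest mean, and 291 genes share their 3 values with another gene. Of 658 listed genes, 580 were measured, 29 lie in rows with several symbols and 49 were not analysed here.

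Means, SDs and counts were calculated in Python 3.11.15 with pandas 2.3.3, without a test, since 1 group was described. The number of arrays limits the precision. Members and lists were chosen with earlier results of these data known. Named were up to 5 members of a list with the highest means and up to 3 with the lowest means or not above background, markers of other cell types above background (up to 6 a list), isozymes, neighbouring genes, the 20 brightest and 12 most variable genes, the hepatocyte markers, AFP, CAT, SOD1 to SOD3 and GPX1 to GPX4. LIN28B, MKI67, CPS1, ENO1, TAT, HAAO, KRT7, IGF2BP1, CDH5 and PTPRC fall outside this rule and were chosen after their values were seen, and HRG, KLKB1 and F12 complete a count. The alternatives tried were other background thresholds and genes, averaging clusters, calling by the mean, quantile normalisation, centring, rows with several symbols, and leaving out each array.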

Additional observations from a re-analysis of the deposited data

How the results depend on the processing

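The counts above background depended most on the background genes. With taste receptor and keratin-associated protein genes in place of olfactory receptors, 3525 of all named genes were above background, 52 liver, 18 fetal, 50 proliferation and 83 metabolic genes, and 8 markers of other cell types. The markers of other cell types also fell to 20 (18.7%) with the 99th percentile of olfactory receptors and to 23 of 110 (20.9%) with rows of several symbols kept, which raised the thresholds to 3.44, 3.61 and 3.51. The other 63 recalculated values for all genes, the 5 families and the median SD stayed within a factor of 1.5 of the original value. So did 315 for single lists, while 48 for single lists did not. Among these 48 were erythroid genes (1 to 2 of 8) and pancreas and intestine markers (1 to 4 of 9) without array 2. Leaving out each array in turn gave 11290 to 11722 named genes, 88 to 91 liver, 28 to 29 fetal, 80 to 81 proliferation and 174 to 181 metabolic genes, 37 to 43 markers of other cell types and a median SD of 0.0654 to 0.0766. Olfactory receptor genes that RefSeq lists as protein-coding were added as a background after the data had been seen. No paired analysis was possible because 1 group was described and no result comes from a test.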
